A study of Homo sapiens with 3 samples.

Results

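TEAD-distant regions are here the H3K27ac regions under 2500 bp wide that had no TEAD region within 50 kb of either end. They were chosen from the peak intervals of both lists on chromosomes 1 to 22 and X. They numbered 3625, which was 6.88% (95% Wilson interval 6.67 to 7.10%) of the 52667 H3K27ac regions and 8.06% (7.81 to 8.31%) of the 44999 H3K27ac regions under 2500 bp. The other 41374 narrow regions had a TEAD region within 50 kb and are called TEAD-near regions. A further 149 H3K27ac regions had no TEAD region within 50 kb but were 2500 bp or wider and were not counted as TEAD-distant.

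The series holds chromatin immunoprecipitated for H3K27ac, chromatin immunoprecipitated for TEAD, and input chromatin, with 1 library of each, all from the human clear cell renal carcinoma line 786-O, which lacks functional VHL. The labels name no treatment. Both immunoprecipitations came from cells fixed in 1% formaldehyde for 10 min. The values used were the H3K27ac and TEAD peak lists as deposited, and each list rests on 1 library of 1 cell line. No test between conditions was therefore possible, and every comparison below is a description of regions within these libraries. Intervals on shares, densities and pileups cover counting error only. Standard errors and intervals of medians cover the spread between regions and not between cultures. Coordinates are hg19 positions. The input library was not analysed here.

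H3K27 acetylation is written by the coactivators p300 and CBP and marks active promoters and active enhancers. Promoter acetylation lies around a gene's start, while enhancers often stand in groups. TEAD proteins are the DNA-binding partners of YAP and TAZ, the coactivators that the Hippo kinases restrain. In epithelial and cancer cells TEAD is known to occupy mostly distal enhancers, often beside AP-1. Fold is used throughout for the authors' enrichment at the summit of a region over the peak caller's local background. The pileup is the number of reads at the summit, recovered from the deposited values.

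The width and the distance to TEAD chose the regions, so both are given as description. The median width of TEAD-distant regions was 827 bp, with quartiles of 466 and 1365 bp. In TEAD-near regions the median was 769 bp, with quartiles of 458 and 1398 bp. Regions from 1000 to under 1500 bp made up 21.7% (20.4 to 23.1%) of TEAD-distant regions and 17.2% (16.9 to 17.6%) of TEAD-near regions. At the wide end, 6.10% (5.36 to 6.92%) of TEAD-distant regions and 9.08% (8.81 to 9.36%) of TEAD-near regions were 2000 bp or wider. The narrowest width, 299 bp, was shared by 128 TEAD-distant regions. It was also the narrowest width in TEAD-near regions, which places it at the floor of the peak list. Together the TEAD-distant regions covered 3.50 Mb, which was 4.60% of the sequence covered by all H3K27ac regions.

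The limits of the rule passed through a continuous range of values. The widest TEAD-distant region lay on chromosome 21 from 33102975 to 33105471 and measured 2497 bp, with a fold of 20.01. The next in width were regions of 2495 bp on chromosome 1 from 224621109 to 224623603 (17.2-fold) and of 2479 bp on chromosome X from 102652061 to 102654539 (11.2-fold). The first region beyond the width limit measured 2505 bp, at 13.1-fold, on chromosome 17 from 56083265 to 56085769. The closest TEAD-distant region to TEAD lay on chromosome 3 from 36638558 to 36639825, 50002 bp away, with a fold of 3.96. The first region inside the excluded distance lay on chromosome 2 from 19687645 to 19688155, 49991 bp from TEAD, with a fold of 5.82. Of the 128 regions tied at 299 bp, the 3 with the highest −log10 q, which are therefore not typical of the 128 in strength, lay on chromosome 1 from 3663623 (6.53-fold), chromosome 6 from 49523915 (5.95-fold) and chromosome X from 12026510 (6.06-fold).

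TEAD-distant regions spanned weak to strong acetylation. Their fold ran from 2.45 to 37.3, with a median of 6.74 (95% interval of the median 6.53 to 6.94) and quartiles of 4.81 and 10.99. TEAD-near regions had a median fold of 5.76 (5.74 to 5.78) and quartiles of 4.45 and 8.98. The median summit pileup was 22 reads in TEAD-distant and 20 reads in TEAD-near regions. A fold of at least 10 was reached by 1066 TEAD-distant regions, 29.4% (27.9 to 30.9%), against 20.6% (20.2 to 21.0%) of TEAD-near regions and a background of 21.3% over all H3K27ac regions under 2500 bp. At 20-fold or more the shares were 3.72% (3.16 to 4.39%) and 2.99% (2.83 to 3.16%). The strongest TEAD-near region reached 50.7-fold, above any TEAD-distant one.

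Wider regions were stronger in both sets. Spearman's rho between width and fold was 0.74 across the 3625 TEAD-distant regions and 0.72 across the TEAD-near ones. These are correlations across regions of 1 library, whose pileups share that library's depth. Median fold of TEAD-distant regions was 4.50 below 500 bp, 6.11 from there to 1000 bp, 9.79 from 1000 to 1500 bp, 12.8 from 1500 to 2000 bp and 14.1 above. The corresponding TEAD-near medians were 4.40, 5.45, 7.79, 10.6 and 12.2. TEAD-distant regions thus had the higher median in each of these 5 width classes, and the gap was smallest among the narrowest.

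Mean log2 fold was 2.88 ± 0.76 (SD, n = 3625) in TEAD-distant and 2.70 ± 0.73 (SD, n = 41374) in TEAD-near regions, a difference of 0.18 ± 0.01 (SE). With no width limit on either set the difference was 0.032. At equal width, over deciles of width, the difference under 2500 bp was also 0.18 ± 0.01, and 0.17 with no width limit. For the log2 summit pileup at equal width it was 0.095 ± 0.010. The recovered background was lower at TEAD-distant regions, with a median of 2.32 reads against 2.74 reads at TEAD-near ones, and 14.8% of TEAD-distant against 6.14% of TEAD-near regions sat at its floor of 1.45 reads. Over deciles of this background the difference in log2 fold was 0.18 ± 0.01. The summit lay in the central 50% of the interval in 83.5% of TEAD-distant and 79.2% of TEAD-near regions.

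**Figure D1:**
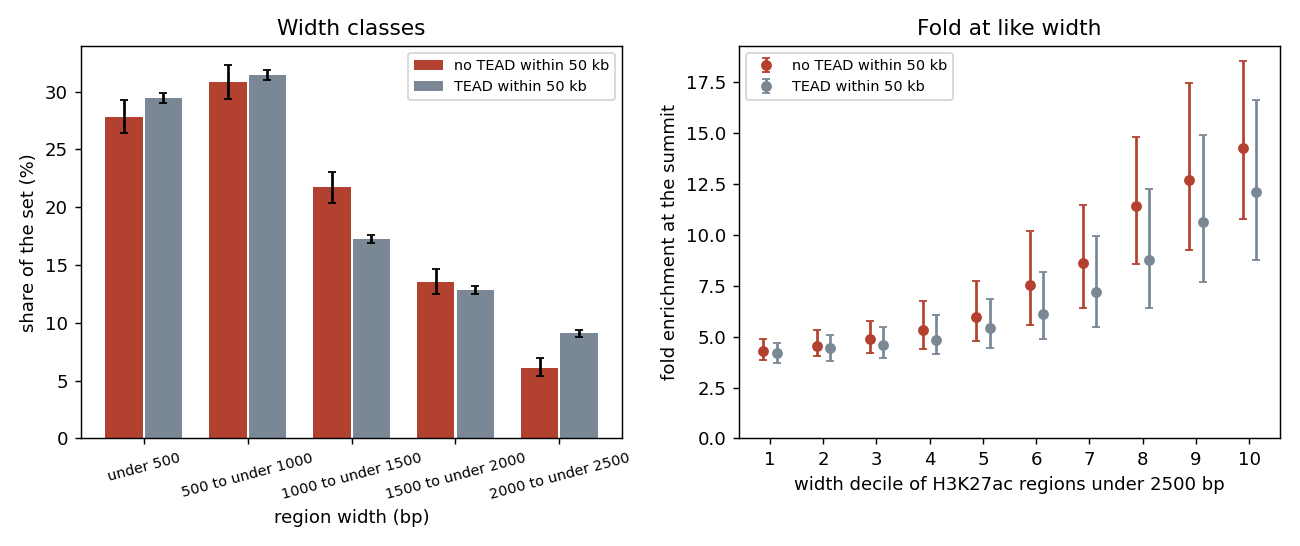
Left, share of each set (%) in 5 width classes, with 95% Wilson intervals as bars. Right, median fold (points) with quartiles (bars) in 10 width deciles of H3K27ac regions under 2500 bp. TEAD-distant regions (red, left of each pair) had medians of 4.30 in the narrowest decile and 14.3 in the widest, against 4.18 and 12.1 in TEAD-near regions (grey).

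The strength difference depended on which TEAD-near regions were used. The 15593 narrow regions that overlapped TEAD had a median fold of 7.46 and a median width of 1151 bp, both above those of TEAD-distant regions. The 25781 narrow regions that lay near TEAD without touching it had a median fold of 5.12 and a median width of 612 bp. In mean log2 fold, TEAD-distant minus overlapping regions gave -0.10 ± 0.01 (SE), and 0.10 ± 0.01 at equal width. TEAD-distant minus near but not overlapping regions gave 0.35 ± 0.01, and 0.22 ± 0.01 at equal width. Against the 3364 regions 25 to 50 kb from TEAD the difference was 0.061 ± 0.018, and 0.053 ± 0.013 at equal width.

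Outside the overlap, median fold was higher in each farther class up to 50 kb from TEAD, with no step at that limit. The median fold was 4.81 within 5 kb of TEAD, 5.19 from 5 to 10 kb, 5.66 from 10 to 25 kb and 6.31 from 25 to 50 kb. Among TEAD-distant regions it was 6.45 (95% interval 6.12 to 6.75) from 50 to 75 kb, 6.94 (6.47 to 7.38) from 75 to 100 kb, 6.88 (6.53 to 7.24) from 100 to 200 kb and 7.41 (6.53 to 8.16) from 200 to 500 kb. These intervals overlapped, and the 107 regions over 500 kb away had a median of 6.53 (5.71 to 7.75). The share at 10-fold or more stayed between 29.1 and 31.0% from 50 to 500 kb and was 18.7% (12.4 to 27.1%) beyond. Across all 3625 TEAD-distant regions, Spearman's rho between TEAD distance and fold was 0.03. Mean recovered background was 2.23 reads over 500 kb from TEAD and 2.80 reads from 50 to 75 kb. Median width also differed, at 546 bp within 5 kb of TEAD, 796 bp from 25 to 50 kb, 812 bp from 50 to 75 kb and 683 bp over 500 kb. The median gap to the nearest other H3K27ac region was 450 bp within 5 kb and 10487 bp from 25 to 50 kb. The parts of background, width and spacing in the folds of these classes were not tested.

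**Figure D2:**
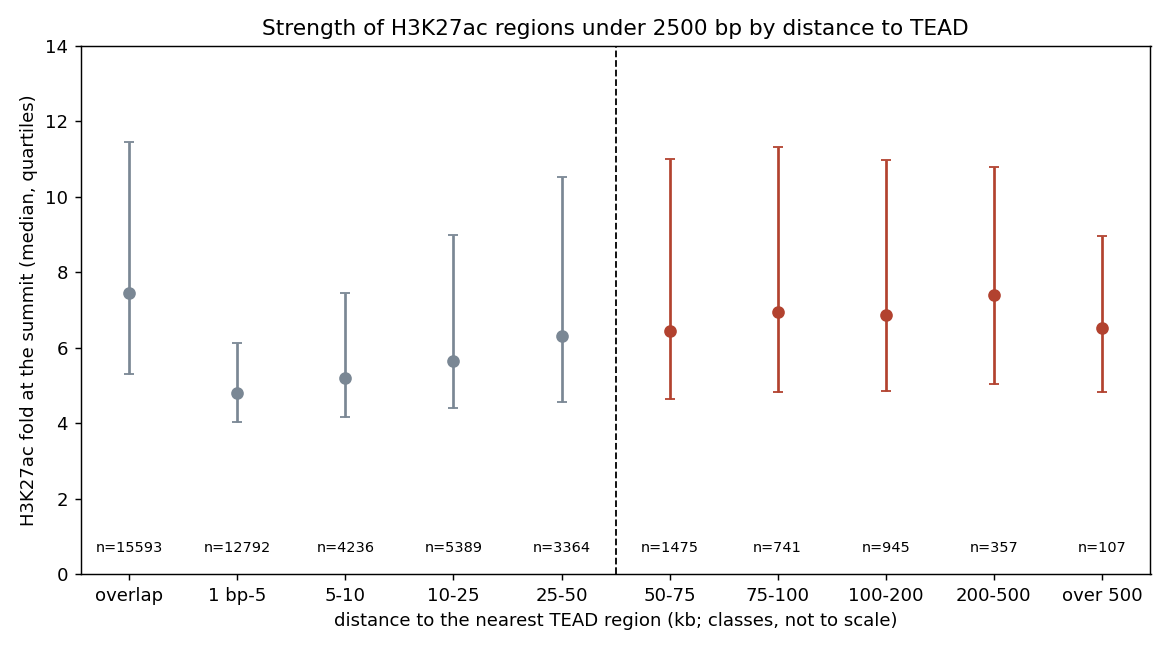
Median H3K27ac fold at the summit (points) with quartiles (bars) of regions under 2500 bp, in classes of distance to the nearest TEAD region (kb), with the number of regions below each point. The dashed line marks 50 kb, with TEAD-distant regions in red to its right. In grey, medians are 7.46 at the overlap, 4.81 within 5 kb and 6.31 at 25 to 50 kb, and in red they lie between 6.45 and 7.41 up to 500 kb.

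The nearest TEAD region lay a median of 84.2 kb from a TEAD-distant region, with quartiles of 62.4 and 134 kb, and 17 regions were over 1 Mb away. The nearest TEAD regions were of ordinary strength, with a median TEAD fold of 7.07, against 7.14 for all TEAD regions. The 7.07 counts a TEAD region once for each TEAD-distant region nearest to it, and 2252 of these TEAD regions were distinct. For 3596 regions TEAD lay on both sides, and the TEAD-free span around them had a median of 301 kb. The remaining 29 lay beyond the outermost TEAD region of a chromosome. A stretch without a called TEAD region may still hold TEAD below the caller's threshold, since the lowest −log10 q in the TEAD list was 2.03.

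The 10 strongest TEAD-distant regions reached 29.8- to 37.3-fold, with 76 to 115 reads at the summit. The highest lay on chromosome 2 from 86789607 to 86790995, with 115 reads and a fold of 37.3 (counting interval 30.9 to 44.7), 59.8 kb from TEAD and 57.9 kb from the next H3K27ac region. Further chromosome 2 regions lay from 149401909 to 149403592 (33.4-fold), from 172015790 to 172018072 (31.3-fold) and from 152117237 to 152118942 (30.9-fold). Chromosome 2 therefore held 4 of the 10, and 7.14% of all TEAD-distant regions. The median fold of its TEAD-distant regions was 6.51, against 6.74 over all of them. Chromosome 1 had a region from 97186692 to 97188549 (32.8-fold), 158 kb from the next H3K27ac region. Chromosome 11 from 46866913 to 46868650 showed 32.2-fold enrichment, and chromosome 12 from 110840657 to 110842277 showed 31.9-fold. On chromosome 9 the regions from 45739144 to 45740190 and from 77566500 to 77568380 reached 31.4- and 30.1-fold. The last, on chromosome 19 from 4122634 to 4124709, had a fold of 29.8 (24.1 to 36.5). The counting intervals of all 10 overlapped, and their ranks cannot be told apart at this depth.

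The regions farthest from TEAD were of mixed strength. A pair of small regions on chromosome 13, from 67507775 to 67508074 (5.71-fold) and from 67508419 to 67508724 (5.25-fold), lay 2209 and 2210 kb from the nearest TEAD region, with 13 and 12 reads at their summits. On chromosome 4, regions from 44727697 to 44728946 and from 44679871 to 44681068 were 18.3- and 15.3-fold, at 2071 and 2023 kb from TEAD. Another chromosome 4 region, from 60426238 to 60426582, had 9 reads and a fold of 3.21, with no other H3K27ac region within 2396 kb. On chromosome 18 the regions from 37379616 to 37380182 (8.98-fold) and from 37281365 to 37281815 (3.26-fold) were 97.8 kb apart. The other 3 of the farthest 10 were a chromosome X pair, from 85301092 to 85301402 (4.49-fold) and from 85301544 to 85302670 (11.2-fold), and a chromosome 2 region from 117248307 to 117248605 (4.44-fold). The folds of these 10 regions ran from 3.21 to 18.3, against a median of 6.74 over all TEAD-distant regions.

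TEAD-distant regions often stood alone. The gap to the nearest other H3K27ac region had a median of 21.8 kb in TEAD-distant regions (quartiles 0.526 and 68.1 kb), against 1.06 kb in TEAD-near regions. No other H3K27ac region lay within 50 kb of 1295 TEAD-distant regions, 35.7% (34.2 to 37.3%), against 4.66% (4.47 to 4.87%) of TEAD-near regions and a background of 7.17% over all H3K27ac regions under 2500 bp. Another H3K27ac region within about 13 kb, the stitching distance customary for super-enhancers, was present for 43.1% (41.5 to 44.7%) of TEAD-distant regions, against 33099 TEAD-near regions (interval of the share 79.6 to 80.4%), with a background of 77%. The rule chose regions by the TEAD positions around them, and 15593 of the narrow H3K27ac regions overlapped TEAD. Regions that overlap TEAD could hardly stand close to a TEAD-distant one. These gaps and shares are therefore not independent of the rule and are description only.

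TEAD-distant regions without a close neighbour had higher folds than those in tight groups. The 768 with their nearest neighbour between about 13 and 50 kb away had a median fold of 8.05 (quartiles 5.12 and 12.7), and 37.5% reached 10-fold. The 1295 isolated TEAD-distant regions had a median width of 998 bp and a median fold of 7.75 (quartiles 5.15 and 12.2), and 36.8% reached 10-fold. The 1930 isolated TEAD-near regions had a median fold of 7.85, and 37.5% of them reached 10-fold. Their median distance to TEAD was 0 bp, so most of them overlapped TEAD. TEAD-distant regions with a neighbour within 500 bp had a median width of 580.5 bp and a median fold of 5.71, and 15.1% reached 10-fold. Among TEAD-near regions with such a neighbour the median fold was 5.48. Within classes of neighbour distance the overall difference of TEAD-distant minus TEAD-near regions in mean log2 fold was 0.026 ± 0.014 (SE), and within these classes at equal width it was 0.094 ± 0.010, against 0.18 without the classes. The 5 strongest isolated regions were the 4 of highest fold among all TEAD-distant regions and the chromosome 2 region from 172015790.

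**Figure D3:**
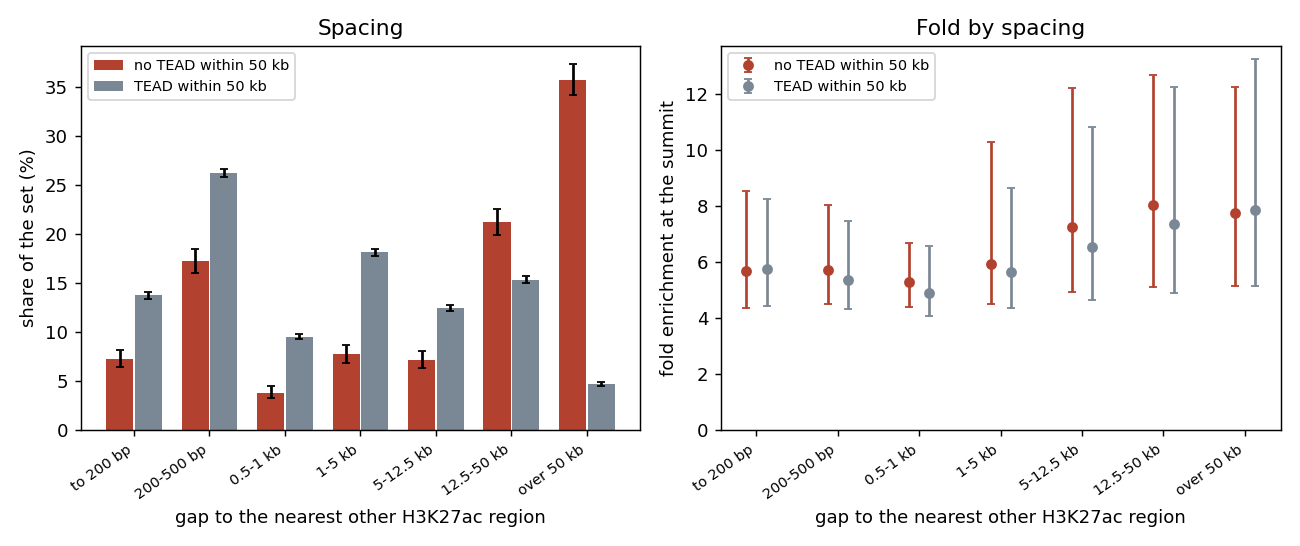
Left, share of each set (%) by the gap to the nearest other H3K27ac region, with 95% Wilson intervals. Right, median fold (points) with quartiles (bars) in the same classes. TEAD-distant regions (red, left of each pair) were isolated by over 50 kb in 35.7% of cases against 4.66% of TEAD-near regions (grey), and the medians of both sets in that class were 7.75 and 7.85.

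At the short end of the spacing stood tight pairs. Another H3K27ac region lay within 500 bp of 886 TEAD-distant regions, 24.4% (23.1 to 25.9%), against 39.9% (39.5 to 40.4%) of TEAD-near regions and a background of 38.7%. The rule itself favours this contrast. Joined at gaps of up to 500 bp, TEAD-distant regions formed 374 pairs, 31 triplets and 5 groups of 4. The gap inside a pair had a median of 259 bp (quartiles 191 and 352 bp), and the summits lay a median of 820.5 bp apart. No gap in the whole H3K27ac list was shorter than 132 bp. The ratio of the stronger to the weaker fold within a pair had a median of 1.45 (quartiles 1.19 and 2.07). This ratio is at least 1 by construction, and how much of it counting error gives was not tested. The stronger partner reached 10-fold in 110 pairs, and both partners did in 11.

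Over gaps of up to about 13 kb, TEAD-distant regions formed 620 clusters of at least 2, holding 1468 regions or 40.5%. Clusters were not formed for TEAD-near regions, so this share has no direct counterpart. A neighbour within that distance was less frequent for TEAD-distant regions (43.1%) than over all H3K27ac regions under 2500 bp (77%). Here too the rule itself favours the contrast. Pairs predominated, with 467 clusters of 2 and 107 of 3, and 153 clusters held 3 or more. Clusters of 3 or more spanned a median of 6.93 kb (quartiles 3.95 and 11.7 kb). The strongest region in such a cluster had a median fold of 8.90 and never exceeded 31.4. The other 2157 TEAD-distant regions joined no other, and their median fold was 7.83. The highest of several folds is raised by construction, so 8.90 and 7.83 are not comparable. TEAD-distant regions with any H3K27ac neighbour within the joining distance had a median fold of 5.77.

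The largest cluster held 10 regions over 19.3 kb on chromosome 8, from 30402210 to 30421503. Its folds were between 3.66 and 14.7, and the 2 regions above 10-fold stood side by side near its middle. Its nearest TEAD region was 50.2 kb away, just outside the limit. The next, with 7 regions over 17.7 kb, lay on chromosome X from 77150309 to 77167958, with folds of 3.75 to 13.5 and no TEAD region within 152 kb. Of the 5 clusters of 6, the 3 with the highest −log10 q are described. That on chromosome 9 from 45727058 to 45742391 was the strongest. It held regions of 20.9- and 31.4-fold side by side, and the cluster's nearest TEAD region was 50.1 kb away. The 31.4-fold region had 76 reads at its summit over a recovered background of 1.45 reads, the floor of the list. Of all H3K27ac regions on chromosome 9, 1.81% sat at that floor, and the mean background there was 3.14 reads. How well reads map at this site was not checked. A chromosome 14 cluster of 6, from 91262474 to 91295105, spread 3.98 kb of acetylated sequence over 32.6 kb and had 1 region above 10-fold, at 18.4. The chromosome 19 cluster from 45578235 to 45604741 covered 8.52 kb of its 26.5 kb and had regions of 13.9- and 16.7-fold.

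**Figure D4:**
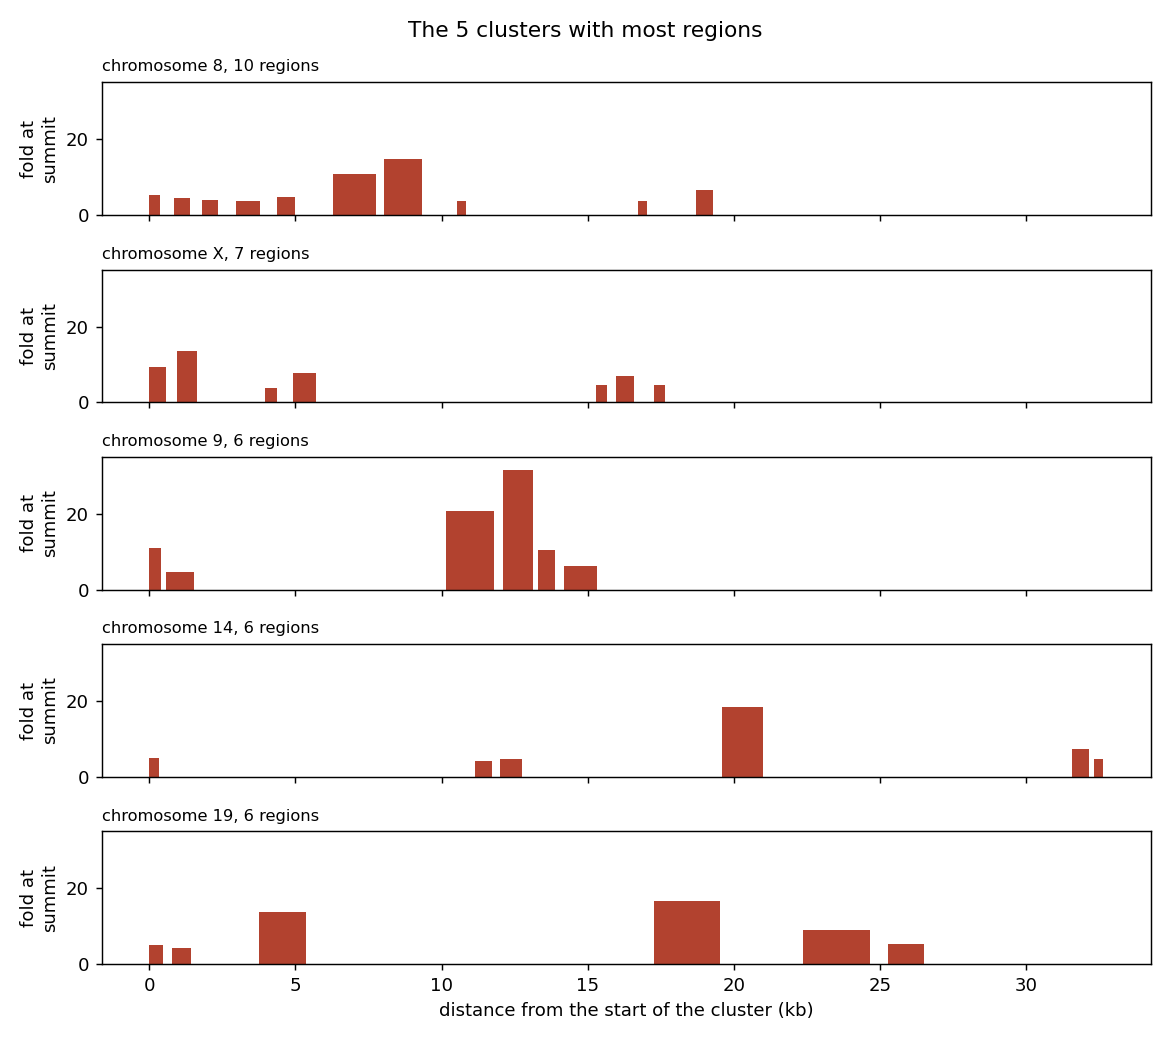
Fold at the summit (vertical axis) of each TEAD-distant region in 5 clusters (those of 10 and 7 regions and the 3 clusters of 6 with the highest −log10 q, of 5 clusters of 6), drawn at its width and distance (kb) from the start of the cluster. In the chromosome 8 cluster 8 of 10 regions lie below 10-fold, and the highest bar is the 31.4-fold region of the chromosome 9 cluster.

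TEAD-distant regions were spread over 1538 bins of 1 Mb, 633 of which held a single one, and 9 bins held 10 or more. The richest bin, chromosome 19 from 53 to 54 Mb, held 12 TEAD-distant regions among 26 narrow H3K27ac regions, and 13 TEAD regions. The bins at 35 Mb of chromosome 10 and 91 Mb of chromosome 14 held 11 each, with median folds of 5.41 and 5.12. Of the bins with 10 TEAD-distant regions, the pair holding the highest −log10 q were those at 58 Mb of chromosome 16 and 3 Mb of chromosome 20, with median folds of 5.33 and 8.52. These 5 bins also held between 7 and 19 TEAD regions. The 10 TEAD-distant regions of the chromosome 20 bin lay in 1 TEAD-free stretch of 403 kb, between 3098821 and 3389293. The 3625 regions lay in 1944 separate TEAD-free stretches, 1929 of them with TEAD on both sides. Of the 1944 stretches, 1064 held 1 region and 96 held 5 or more. The fullest stretch, looked up after the counts had been seen, was on chromosome 19. It was free of TEAD over 1387 kb and held 14 TEAD-distant regions between 19976616 and 21204430, the strongest of them 17.0-fold.

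The TEAD-distant share of narrow H3K27ac regions was highest on chromosomes X and 13. It was 18.7% on chromosome X (251 regions, 95% interval 16.7 to 20.8%) and 18.6% on chromosome 13 (143 regions, 16.05 to 21.6%), and the intervals of these overlapped. Chromosome 4 followed with 11.5% (10.1 to 12.9%), chromosome 19 with 10.5% (9.05 to 12.1%) and chromosome 5 with 9.10% (8.01 to 10.3%). The lowest share was 2.75% (1.89 to 3.97%) on chromosome 22, where 27 regions qualified. The other 17 chromosomes lay between 5.88% on chromosome 21 and 8.99% on chromosome 12, among them chromosome 3 with 7.78%, chromosome 14 with 7.12%, chromosome 8 with 6.72% and chromosome 9 with 6.45%. Without chromosomes 13 and X the share over the genome was 7.53%.

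The chromosomes with the 3 largest shares also had the most sequence away from TEAD. Positions over 50 kb from any TEAD region made up 61.0% of chromosome X, 57.4% of chromosome 13, 52.3% of chromosome 4 and 26.9% of chromosome 22, against 42.7% of the genome (995 of 2332 Mb). Peak-free stretches longer than 1 Mb were left out of these lengths. TEAD regions numbered 7.93 per Mb on chromosome X and 8.39 on chromosome 13, the fewest of any chromosome. Mean recovered background at TEAD regions was 1.81 reads on chromosome X and 1.68 on chromosome 13, also the lowest, and at H3K27ac regions it was 1.95 reads on X and 1.86 on 13. The rule selects for sparse TEAD regions, so their density is no independent measure of the share. Across the 23 chromosomes, Spearman's rho of the share with the background at TEAD regions was -0.47, and -0.31 without chromosomes 13 and X. Chromosomes share the same 2 libraries. The part of background in the share on chromosomes 13 and X was not tested.

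Counted per Mb of TEAD-free sequence, chromosome 19 stood at the top. TEAD-distant regions numbered 3.64 per TEAD-free Mb over the genome (95% counting interval 3.52 to 3.76), against 30.9 TEAD-near regions per Mb of the rest. The TEAD positions set both lengths and both sets of regions, and 15593 TEAD-near regions overlapped TEAD, so this contrast is description only. On chromosome 19 the density was 9.25 (7.88 to 10.8), on chromosome 16 it was 5.66 (4.73 to 6.71) and on chromosome 17 it was 5.27 (4.40 to 6.27). Chromosomes X and 13 had 4.19 (3.69 to 4.75) and 4.17 (3.52 to 4.92), and chromosome 8 the fewest, 2.64 (2.22 to 3.13). The interval of chromosome 19 did not overlap that of any other chromosome. These intervals treat regions as independent, although 14 of those on chromosome 19 lay in 1 TEAD-free stretch. Per Mb of sequence within 50 kb of TEAD, TEAD-near regions were also dense on chromosomes 19 (37.9), 17 (36.2) and 16 (35.3). Their density was highest, 40.3, on chromosome 22. Chromosome 19 is the most gene-dense human chromosome and carries large clusters of zinc finger genes.

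Strength by chromosome ran from a median fold of 5.84 on chromosome 3 (233 regions) to 9.11 on chromosome 19 (161 regions). On chromosome 19, 46.0% of TEAD-distant regions reached 10-fold, against 15.4% of the 65 on chromosome 18. TEAD-near regions of chromosome 19 had a median fold of 7.68, also the highest among chromosomes, so the high level there was shared by both sets. TEAD-distant regions had the higher median fold on each of the 23 chromosomes, by as little as 6.07 against 5.99 on chromosome 14. Isolation by over 50 kb was least frequent on chromosome 19 (26.7%) and most frequent on chromosome 22 (51.9%).

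**Figure D5:**
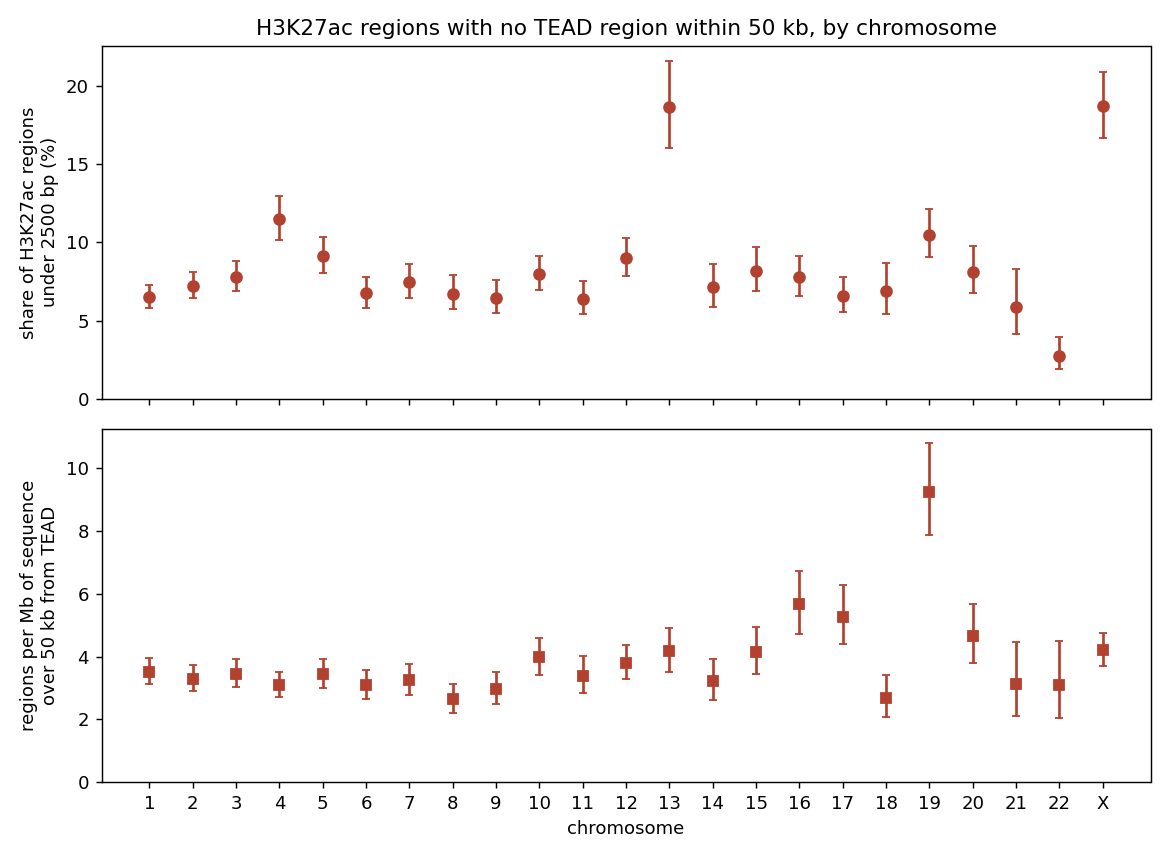
Top, TEAD-distant share (%) of H3K27ac regions under 2500 bp on each chromosome, with 95% Wilson intervals. Bottom, TEAD-distant regions per Mb of sequence over 50 kb from TEAD, with exact 95% Poisson intervals. Chromosomes 13 (18.6%) and X (18.7%) stand apart in the share and chromosome 19 (9.25 per Mb) in the density.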

How the data were processed

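The authors deposited 1 peak list each for H3K27ac and TEAD. Per the submitters' processing notes, fastp, Bowtie2 2.4.5 and MACS2 were used with build hg19, with roles and thresholds not given in the sources used here. Columns used were the authors' fold (a ratio to local background), and the deposited −log10 p and −log10 q at the summit. The deposited summit offset, given per the labels' peak format, was also used, and the authors' whole-number score was not. Only chromosomes 1 to 22 and X were analysed. Coordinates are counted from 1.

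Summit pileup k and background b were solved from fold = (k + 1)/(b + 1) and from the Poisson upper tail beyond k, set equal to p. A whole k met the deposited −log10 p within 0.002 for 100% of regions. Total reads per library are unknown here.

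The rule counted bases between interval ends. Clusters join TEAD-distant regions over gaps of up to about 13 kb with no other H3K27ac region between. Differences over width deciles weight each decile by its TEAD-distant regions. Regions named in the text are the 10 strongest, the 5 strongest isolated, the 3 widest and narrowest, those at the limits, the 10 farthest from TEAD, and the 5 fullest clusters and bins, with ties ordered by −log10 q. Python 3.11.15, numpy 2.4.6, pandas 2.3.3 and scipy 1.17.1 were used, and functions were tested on simulated data. The rule, lists and comparisons were chosen with earlier results of these data known. The reference gene and promoter tables used another build, so no region was assigned to a gene, no sequence was printed, the planned distance to gene starts was not computed, and marker genes of the line were not checked.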

Additional observations from a re-analysis of the deposited data

How the results depend on the processing

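Of 68 alternative values for 9 results, 60 were planned and 8 were chosen after the data had been seen. Only the log2 differences could change sign, and none of their alternatives did. The counts, shares, medians and range over chromosomes cannot be negative. Of the 68 values, 35 stayed within the interval of the main value (for counts, within 1.5 times it), and 33 moved beyond it. That interval covers counting error for shares, and the spread between regions for medians and log2 differences. With no TEAD region allowed within 25 kb there were 6989 TEAD-distant regions (15.5% of narrow regions) in 1290 clusters, 47.5% had a neighbour within about 13 kb, and the chromosomes' shares spanned 18.3 percentage points. At 100 kb these values were 1409 regions, 3.13%, 230 clusters, 39.5% and 9.93 points, and the log2 fold difference at equal width was 0.20. With widths under 1500 bp the median width was 662 bp, the median fold 5.84 and the share with a neighbour 46.8%. With no width limit the share was 7.17% of all H3K27ac regions, the median width 873.5 bp and the unmatched log2 fold difference 0.032. With TEAD regions of −log10 q at least 5 the share was 9.64%, the neighbour share 45.2% and the unmatched log2 fold difference 0.21. With H3K27ac regions of −log10 q at least 5 the share was 8.34%, the median width 968.5 bp, the median fold 7.75 and the neighbour share 37.0%. The neighbour share was 35.9% within 5 kb and 51.7% within 25 kb. At equal width, the log2 difference of TEAD-distant minus TEAD-near regions (0.18) was 0.095 for pileup, 0.094 within neighbour classes, 0.10 against TEAD-near regions that overlap TEAD, 0.22 against those that do not and 0.053 against those 25 to 50 kb away. Outside these 68 values, the difference against overlapping regions had the opposite sign, -0.10, without matching on width. Without chromosomes 13 and X the share was 7.53% and spanned 8.72 points over chromosomes. The lower limit of the share by chromosome was on chromosome 22 in every setting and the upper on chromosome X, except on chromosome 13 with stricter H3K27ac regions and on chromosome 4 without chromosomes 13 and X. Distances to gene starts were not run, for want of an annotation of the build. No paired analysis was possible because each group had 1 library. Strength at the margin is limited by pileups as low as 7 reads.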
